A study of Mus musculus with 15 samples.

Results

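The 52 interferon-stimulated genes and sensors described here were chosen by name from the 18804 genes of the count table. They comprise 2 receptor chains, 5 transcription factors, 6 nucleic acid sensors, 10 genes whose products act on RNA, 7 genes of the ISG15 and ubiquitin system, 3 members of the PARP family, 10 interferon-inducible GTPases and 9 other antiviral or inducible proteins. All 52 passed the filter on low counts, as did 14293 genes in all.

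Interferons are secreted proteins that warn cells of infection. Type I interferon binds a receptor made of IFNAR1 and IFNAR2, the kinases JAK1 and TYK2 then activate STAT2, which joins IRF9 in a complex that binds the interferon-stimulated response element (ISRE) in DNA near the start of target genes. The products degrade or edit viral RNA, tag proteins with ISG15, coat membranes or sense further viral nucleic acid, and many cells keep a low level of these mRNAs without an infection.

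The cells were cultured white adipocytes, differentiated from mesenchymal stem cells of C57BL/6J mice with methylisobutylxanthine, dexamethasone, insulin and, by the labels of these samples, troglitazone, where another passage of the study's methods names rosiglitazone. The labels name no interferon or virus treatment in any group. Each of 3 groups had 5 libraries. Day 0 cells stayed at 37°C, day 1 cells were moved to 31°C on day 15 of differentiation, and day 12 cells were moved on day 4, so that the length of the exposure and the stage at which it began cannot be told apart. All cells were harvested on day 16. Nothing in the labels tells apart libraries from different mice, dishes or preparations, so the p-values measure only the spread between these libraries, which may be technical. Values written with ± are the mean and SD of the 5 libraries of a group. In bulk RNA, fewer cells of a type and less RNA per cell cannot be told apart.

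Library totals were 92.4 to 133 M counts at day 0, 74.4 to 105 M at day 1 and 64.6 to 91.3 M at day 12. All 10 adipocyte markers were detected, and together they ranged from 4400 to 5020 CPM (counts scaled to library size with the trimmed mean of M-values, TMM) in day 0 libraries, 5330 to 5910 in day 1 libraries and 4690 to 5270 in day 12 libraries. Single adipocyte markers moved both ways at day 12, where 4 of the 10 were called lower and 2 higher. Adipoq, for example, was at 1095 ± 41.4 CPM at day 0 and 464 ± 9.71 at day 12, and Fabp4 at 828 ± 66 and 1618 ± 75.5. Macrophage and myeloid markers, of which 9 of 14 were in the table, summed to 26.4 to 33.8, 42.3 to 48.4 and 30.1 to 34.2 CPM, most of it Cd14 and Cd68, with the pan-leukocyte gene Ptprc near 0. Of the 4 myeloid markers tested, 2 were called higher and 0 lower at day 1, and likewise at day 12 (median log2 fold changes 0.58 and 0.635). Of all genes, 7.71% and 13% were called higher at these times. Summed lymphocyte, epithelial and endothelial markers reached at most 0.206, 0.167 and 1.79 CPM in any library. The summed chondrocyte markers, mostly Comp, were lower at day 12 (1130 to 1220 CPM, against 3670 to 4400 at day 0), as was the sum of 7 fibroblast and progenitor markers (2940 to 3280 against 3770 to 4120 CPM). Most of the latter sum was Col1a1, and of the 5 tested markers of that list only Ly6a was called lower at day 12 (median log2 fold change -0.09). Of the 4 tested chondrocyte markers, 3 were called lower at day 12 and 0 higher (log2 fold changes from -2.02 to 0.29). The part of these shifts in the results was not tested.

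A few libraries stood apart for these genes. Day 0 replicate 3 was the lowest of its group for 47 of the 52 members, against 25% of all genes tested. At day 12, replicates 1 and 2 both lay below the other 3 libraries for 45 of 52 members (86.5%), against 12.9% of all genes. The 7 exceptions were Ifit2, Oasl1, Irf1, Irf3, Trim25, Ifnar1 and Ifnar2. The median standard deviation of log2 CPM between libraries was 0.116 over the members and 0.0778 over all genes at day 0, 0.0679 and 0.0811 at day 1, and 0.227 and 0.0766 at day 12. Rsad2 was the most variable member at both day 0 and day 12 (0.452 and 0.802). Results are therefore also given without these 3 libraries.

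**Figure D1:**
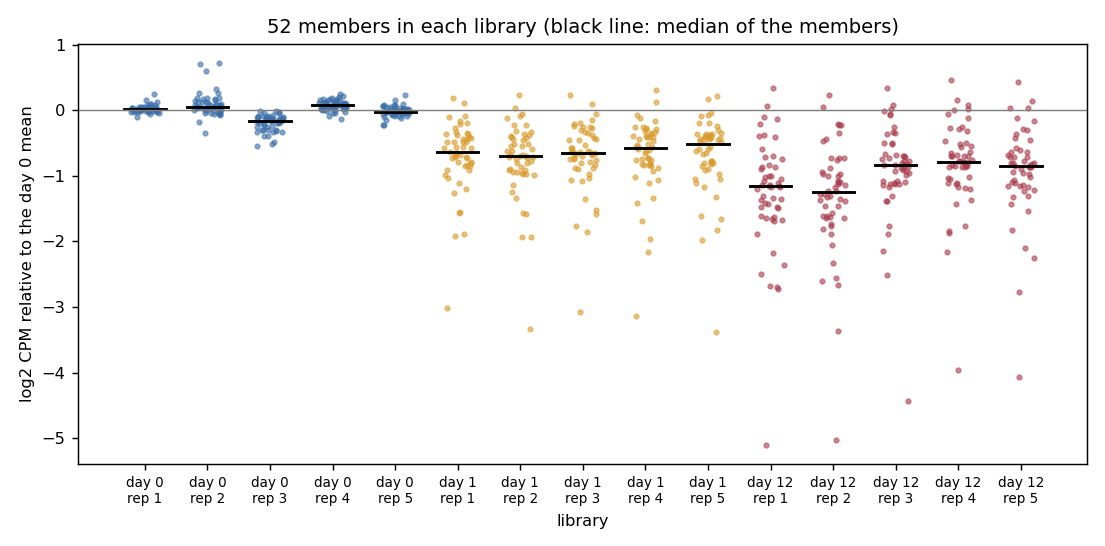
Level of each of the 52 members in each of the 15 libraries, as log2 CPM relative to the mean of the 5 day 0 libraries (y axis), with the libraries along the x axis, 1 point per member and a black line at the median of the members. The medians span -0.158 to 0.078 in the day 0 libraries, -0.696 to -0.518 in the day 1 libraries and -1.25 to -0.783 in the day 12 libraries, of which replicates 1 and 2 are the lowest.

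Windows of 250 bases before to 50 bases after each start, from RefSeq (GRCm38.p6), were found for 40 of the 52 members. Ifi204, Zbp1, Mx2, Parp9, Dhx58, Parp14, Mx1, Iigp1, Rtp4, Gbp6, Oas2 and Usp18 were not matched. The ISRE core was searched as GAAANNGAA on both strands, overlapping matches included. The next 6 stretches belong to the 4 members with a core that fell most at day 12, and to Oasl1 and Irf7, the members without one that fell most. They run from 150 bases before to 10 bases after the start, 5′ to 3′ on the strand of the gene, with every ISRE core in capitals. A core on the opposite strand reads TTCNNTTTC.
Oas3: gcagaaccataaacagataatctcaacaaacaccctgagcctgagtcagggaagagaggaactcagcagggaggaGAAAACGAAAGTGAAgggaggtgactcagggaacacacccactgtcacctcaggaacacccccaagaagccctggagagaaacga
Ifi44: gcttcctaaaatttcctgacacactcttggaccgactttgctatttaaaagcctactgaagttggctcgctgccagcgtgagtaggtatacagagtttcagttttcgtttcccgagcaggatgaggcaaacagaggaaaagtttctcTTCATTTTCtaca
Rsad2: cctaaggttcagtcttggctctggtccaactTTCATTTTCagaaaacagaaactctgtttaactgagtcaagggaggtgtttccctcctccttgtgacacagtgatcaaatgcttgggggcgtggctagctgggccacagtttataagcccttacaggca
Trim30a: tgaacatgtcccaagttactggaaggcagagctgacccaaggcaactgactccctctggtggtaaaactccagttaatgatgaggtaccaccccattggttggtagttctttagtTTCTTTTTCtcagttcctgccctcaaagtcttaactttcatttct
Oasl1: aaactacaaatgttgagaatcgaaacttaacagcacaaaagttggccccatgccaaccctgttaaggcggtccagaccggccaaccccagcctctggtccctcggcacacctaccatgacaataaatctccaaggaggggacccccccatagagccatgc
Irf7: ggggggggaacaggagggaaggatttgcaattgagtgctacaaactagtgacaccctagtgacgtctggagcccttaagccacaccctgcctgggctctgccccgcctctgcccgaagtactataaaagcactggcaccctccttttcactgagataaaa
The stretch of Oas3 lies at chr5:120777650-120777809 (minus strand), that of Ifi44 at chr3:151749901-151750060 (minus), that of Rsad2 at chr12:26456443-26456602 (minus), that of Trim30a at chr7:104465184-104465343 (minus), that of Oasl1 at chr5:114923090-114923249 (plus) and that of Irf7 at chr7:141266415-141266574 (minus). With positions counted from the start, the overlapping cores of Oas3 begin at -75 and -69, that of Rsad2 at -119 and that of Trim30a at -35, whereas the core of Ifi44 spans the start itself.

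An ISRE core was present in 24 of the 40 members with a window (60%), against 8.56% of all 32851 windows and 8.52% of the 10089 tested genes with a window. These 24 members held 40 cores, and 13 of the members had one wholly within 100 bases before the start. The core of the gamma-activated sequence (GAS, searched as TTCNNNGAA, whether or not it overlapped an ISRE core) was present in 12 of 40 members (30%) and in 8.3% of all windows. Of the 24 members with an ISRE core, 15 were called lower at day 1, as were 6 of the 16 without. At day 12 the counts were 19 and 12, with median log2 fold changes of -0.93 and -1.02. Among tested genes outside the list, 14.2% of those with an ISRE core and 12.7% of those without were called lower at day 1, and 18.3% and 15.3% at day 12. A match is only a match of letters, and a window without one says nothing about binding elsewhere.

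**Figure D2:**
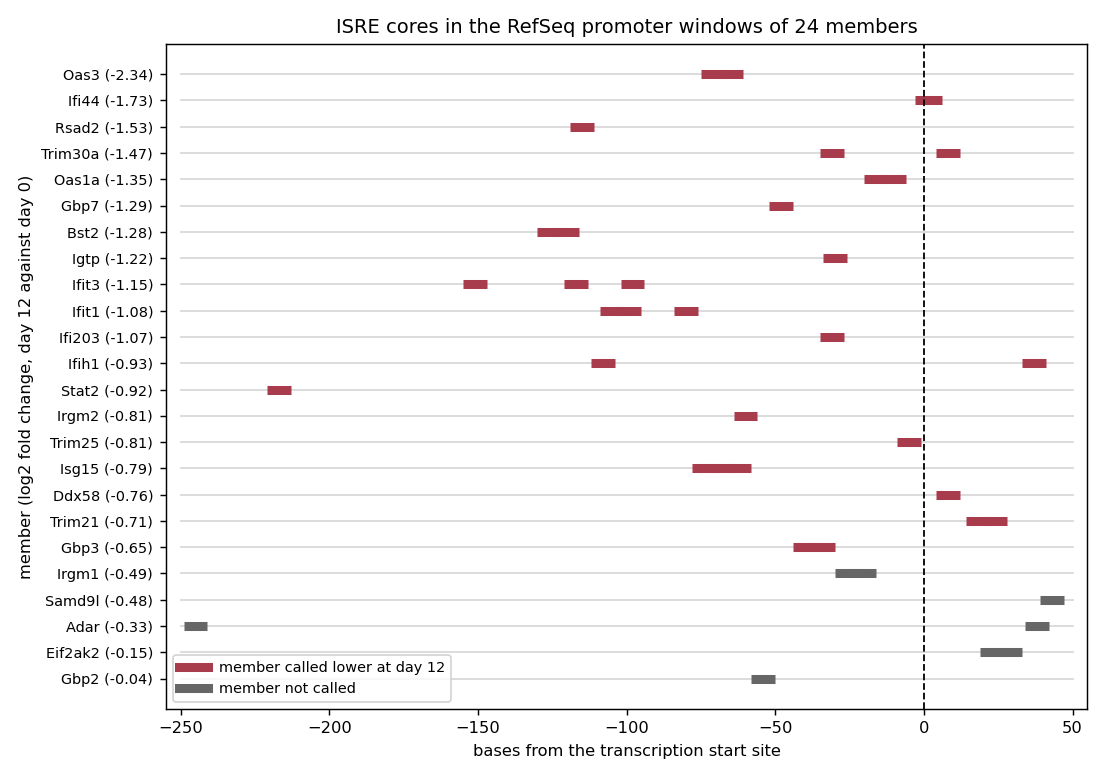
Position of every ISRE core (thick bars) in the promoter windows of the 24 members that hold one, in bases from the transcription start site (x axis, dashed line at the start), ordered from the largest fall at day 12 at the top, with the log2 fold change beside each name. Red bars mark the 19 members called lower at day 12 and grey bars the 5 that were not, Irgm1, Samd9l, Adar, Eif2ak2 and Gbp2.

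The first question was how far these mRNAs had changed after 1 day at 31°C. A gene was called where edgeR's quasi-likelihood test gave a Benjamini-Hochberg adjusted p under 0.05 over all 14293 genes and the fold change was over 1.5. At day 1, 27 of 52 members were called lower (51.9%), against 13.4% of all genes, and 0 were called higher, against 7.71%. Without the fold limit, 49 members were lower, against 36.2% of all genes, and 2 (Ifit2 and Lgals3bp) were higher, against 35.3%. The median log2 fold change was -0.61 over the members and -0.01 over all genes. In 44 members all 5 day 1 libraries lay below all 5 day 0 libraries, as they did in 28.8% of all genes. Leaving out day 0 replicate 3, 33 members were called lower and the median was -0.69, and with DESeq2's test 26 were called lower.

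After 12 days, 42 of 52 members were called lower than at day 0 (80.8%, against 16.2% of all genes) and 0 higher (against 13% of all genes). By adjusted p alone, 48 were lower, against 37.4% of all genes, and 1, Ifit2, was higher, against 39.2%. The median log2 fold change was -0.95, against 0.01 over all genes. In 45 members all day 12 libraries lay below all day 0 libraries, compared with 31.7% of all genes. Without day 12 replicates 1 and 2 the count was 38 and the median -0.83. Without these and day 0 replicate 3 the count was 40. DESeq2's test called 42 lower.

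Both comparisons share the day 0 libraries, so day 12 was also compared with day 1 directly. There, 11 members were called lower (21.2%, against 8.53% of all genes) and 0 higher (against 10.6%), with a median log2 fold change of -0.16. The 11 were Oas2, Oasl1, Irf7, Lgals3bp, Bst2, Ifi44, Rsad2, Iigp1, Ifnar2, Igtp and Ifit3. By adjusted p alone, 26 were lower and 7 higher at day 12 than at day 1, against 32.8% and 34.3% of all genes. Without day 12 replicates 1 and 2, 8 of the 11 were called, and Ifit3, Igtp and Rsad2 were not (log2 fold changes -0.34, -0.52 and -0.51).

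By these calls the members were sorted into a few time courses, some of which rest on values close to the fold limit. For 22 members, lower levels were called at both times with no further change called between them, among them Stat2, Irf9, Irf1, Ddx58, Ifih1, Isg15, Usp18 and Oasl2. Another 9 were called at day 12 only against day 0, and 7 more (Ifit3, Oasl1, Irf7, Bst2, Iigp1, Lgals3bp and Ifnar2) were called at day 12 against both day 0 and day 1 but not at day 1. Oas2, Rsad2, Ifi44 and Igtp were called lower in all 3 comparisons. Samd9l was called only at day 1. Of the members not called at day 1, Mx2, Dhx58, Trim21, Xaf1, Ifit3 and Oasl1 were called lower there without day 0 replicate 3 (-0.65, -0.61, -0.60, -0.61, -0.64 and -0.59), and Ifi35 was with scaling to reference genes (-0.62). The remaining 9, Ifit2, Irf3, Gbp2, Irgm1, Parp9, Parp12, Eif2ak2, Adar and Ifnar1, were called in none.

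**Figure D3:**
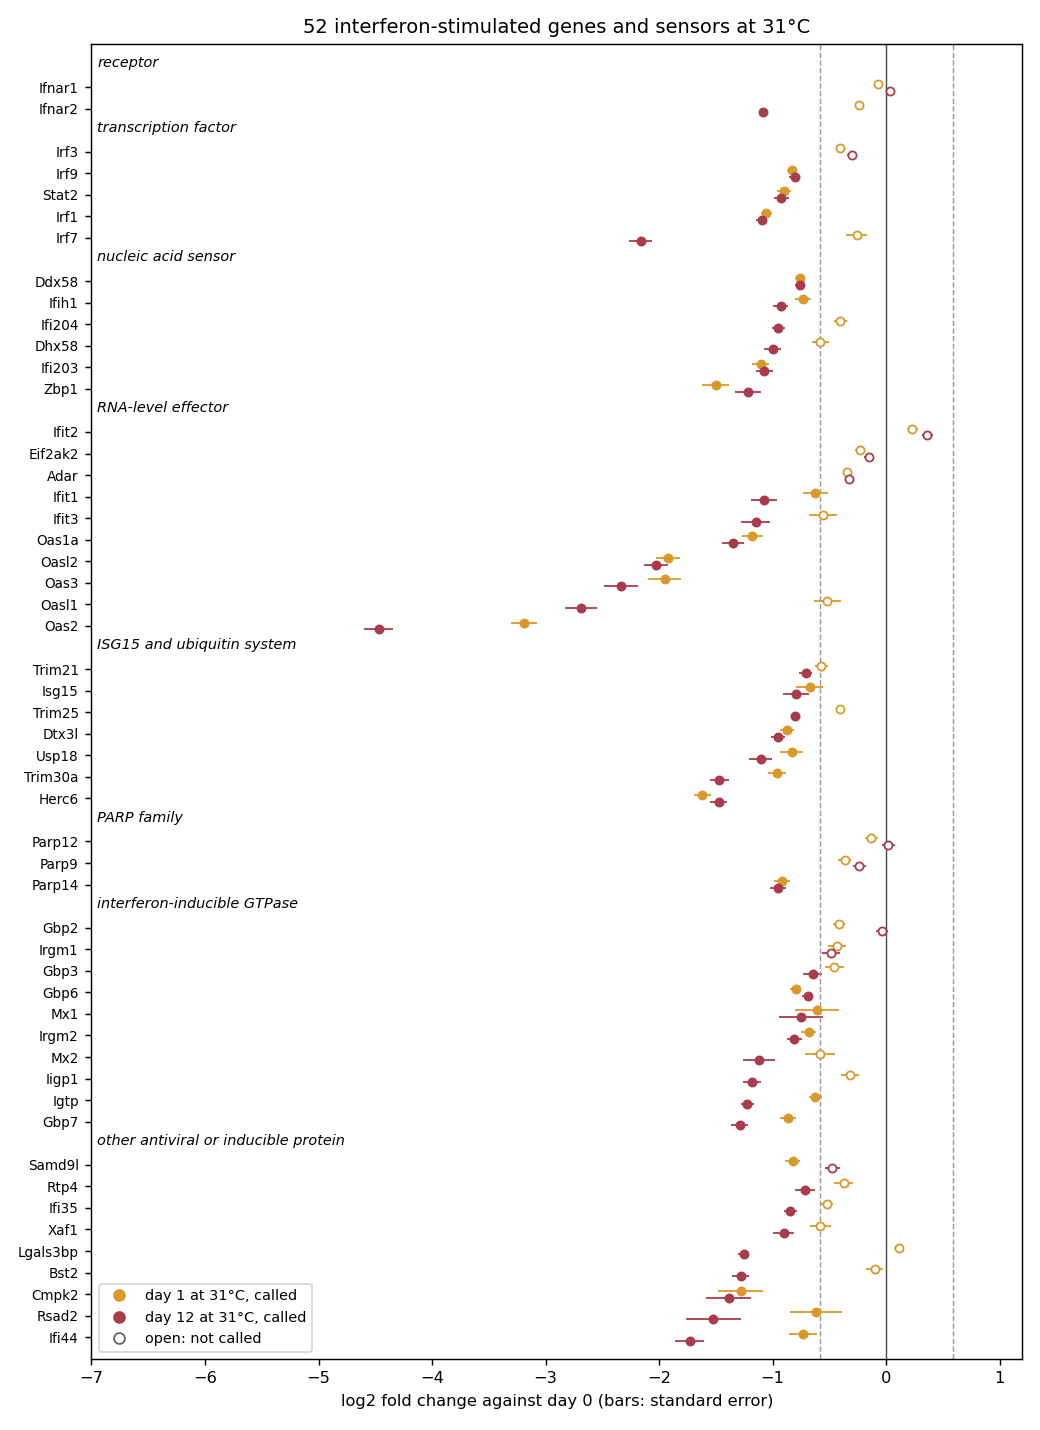
Log2 fold change against day 0 (x axis) of each of the 52 members, grouped by role, after 1 day (amber) and 12 days (red) at 31°C, with bars for the standard error. Filled points were called and open points were not, and dashed lines mark the 1.5-fold limit. Oas2 lies farthest left at -3.19 and -4.47, and Ifit2 lies right of 0 at both times (0.23 and 0.36).

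**Figure D4:**
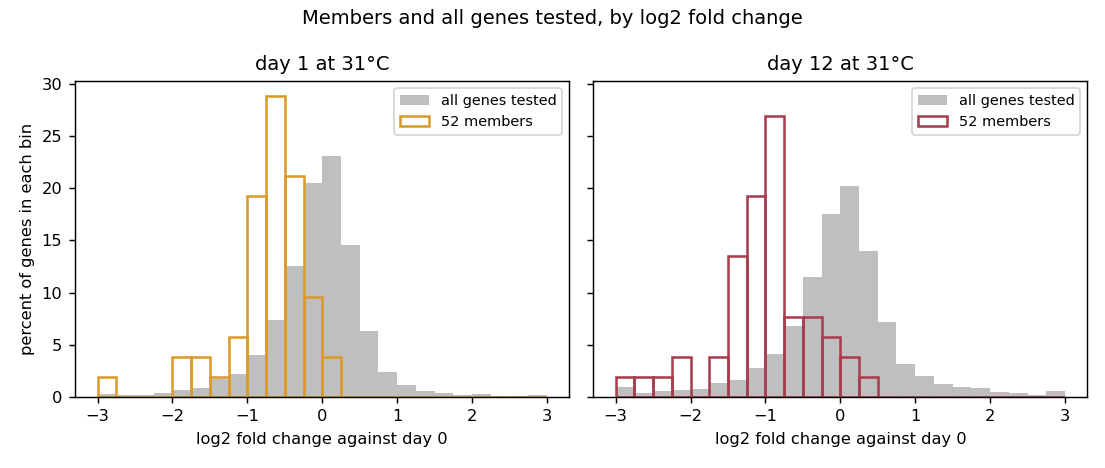
Percent of genes (y axis) in each bin of log2 fold change against day 0 (x axis) at day 1 and day 12, for all genes tested (grey) and the 52 members (outlined), with values beyond the axis counted in the outermost bins. The members' median is at -0.61 at day 1 and -0.95 at day 12, and that of all genes is at -0.01 and 0.01.

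The chains of the type I interferon receptor, whose genes both lie on chromosome 16 (positions in mm10), differed from each other. Ifnar2 (chr16:91372783-91405589) encodes the chain that binds interferon with the higher affinity, and its mRNA was 213, 212, 215, 223 and 219.6 CPM in the day 0 libraries. It was 179, 185, 180.4, 181 and 189 CPM at day 1, and 98.1, 103, 103, 106 and 101 CPM at day 12. The 3 groups did not overlap and the spread within each was small. Ifnar2 fell at day 12 by 1.09 on the log2 scale (SE 0.0264, 2.12-fold, adjusted p = 6.08e-21), and most of that difference lay between day 1 and day 12 (-0.84, adjusted p = 1.94e-18). Its partner Ifnar1 (chr16:91485238-91507441) had 102, 109, 100.2, 102 and 101 CPM at day 0, where replicate 2 stood above the rest. At day 1 it had 95.6, 97.3, 99, 97.3 and 98.2 CPM, below every day 0 library but under the fold limit (log2 fold change -0.08, adjusted p = 0.0154). Its day 12 libraries, at 107, 106, 102, 104 and 105 CPM, overlapped with those of day 0 (log2 fold change 0.03, adjusted p = 0.317). They lay above those of day 1, again under the fold limit (0.11, adjusted p = 0.00142).

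The counts by role are to be read beside the 13.4% and 16.2% of all genes called lower at day 1 and day 12. Of the 5 transcription factors, Stat2, Irf9 and Irf1 were called lower at both times, Irf7 at day 12 and Irf3 at neither. Stat2, a subunit of the complex that binds the ISRE, had 119, 127, 109, 125 and 122 CPM at day 0. At day 1 its values were 67.6, 64.2, 61.6, 63 and 66.5 CPM, and at day 12 they were 55.6, 53.4, 68.8, 74.4 and 65.8 CPM. Both later groups lay wholly below day 0 and overlapped with each other. The log2 fold changes were -0.90 (SE 0.0634) and -0.92 (SE 0.0634), and the difference between day 12 and day 1 was -0.02 (adjusted p = 0.759).

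Irf9, the DNA-binding subunit of the same complex, had 68.8, 72.9, 63.6, 71.7 and 65.8 CPM at day 0, 39.2, 36.5, 39.3, 38.3 and 39.3 at day 1, and 37.4, 35, 42.1, 42.4 and 39.3 at day 12. It likewise fell by day 1 (-0.83, SE 0.0463) and was at -0.81 at day 12. Irf1, a factor induced by interferon gamma that also activates interferon genes, went from 62.9, 64.8, 53.9, 60.3 and 56.2 CPM at day 0 to 29.1, 30.5, 28.3, 29.3 and 26.4 at day 1 and 26.5, 27.9, 28.3, 29.3 and 27.6 at day 12. Its day 12 libraries were tightly grouped, unlike those of most members (log2 fold changes -1.05 and -1.10, adjusted p = 1.04e-15 and 2.21e-16).

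Irf7 (chr7:141262706-141266481), which amplifies interferon production once sensors have fired, had another course. Its day 0 values were 217, 180.1, 185, 228 and 213 CPM. At day 1 they were 179, 154, 171, 171 and 178 CPM, just below every day 0 library, with a log2 fold change of -0.26 (SE 0.0938, adjusted p = 0.0162) that did not reach the fold limit. At day 12 they were 36, 34.7, 54.9, 55.7 and 47.3 CPM, or 22.4% of the day 0 mean. The fall at day 12 was 4.48-fold against day 0 (-2.16, SE 0.0997, adjusted p = 1.05e-15) and 3.74-fold against day 1 (-1.90, adjusted p = 2.65e-14). Irf3, which is present before infection and starts interferon transcription, moved less, with 34.8 ± 1.19, 26.2 ± 1.17 and 28.2 ± 1.15 CPM at days 0, 1 and 12 (-0.41 and -0.30, under the fold limit).

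**Figure D5:**
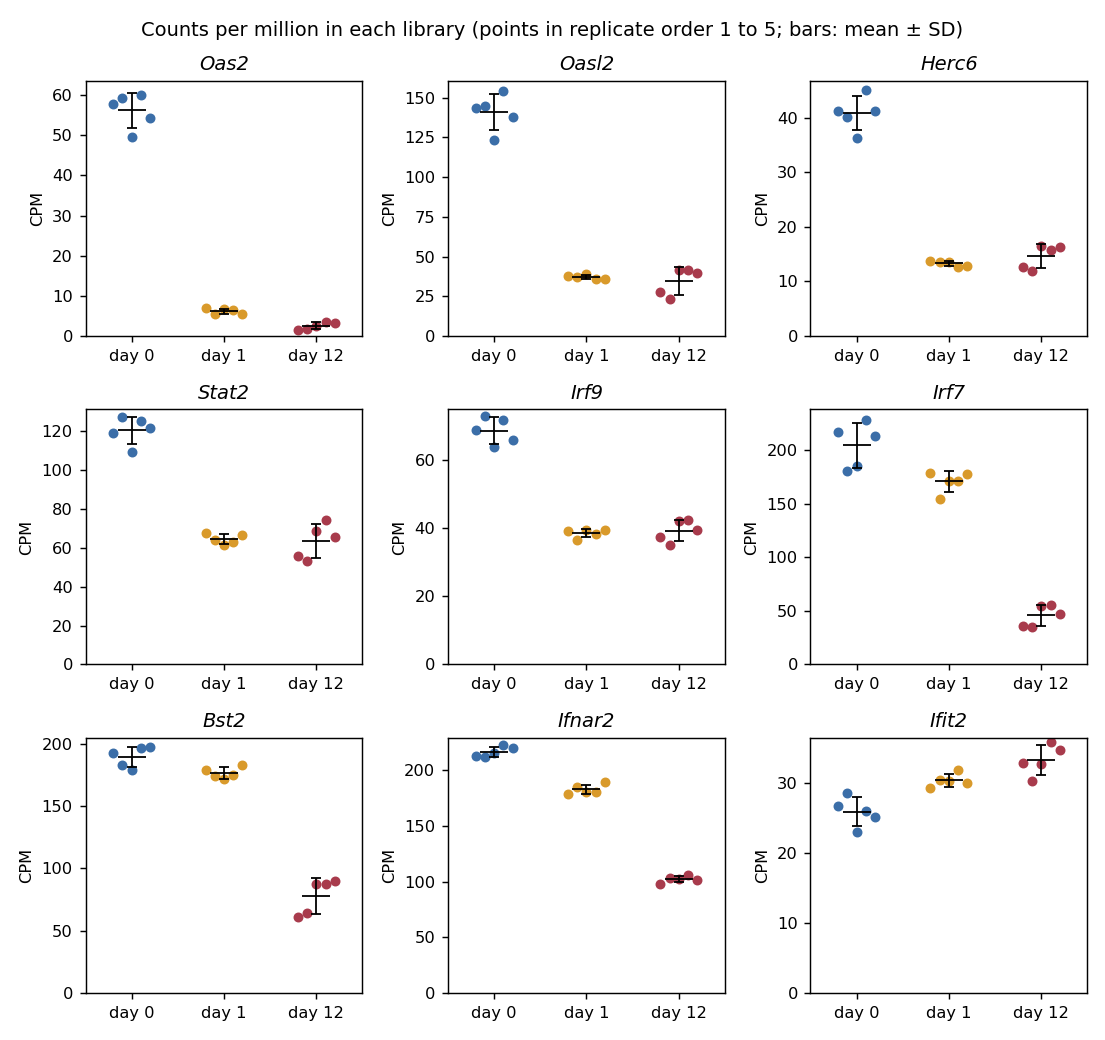
CPM (y axis, from 0) of 9 members in each library of the 3 groups, with points in replicate order and bars for the mean and SD of 5 libraries. Oas2, Oasl2, Herc6, Stat2 and Irf9 are lower in all day 1 libraries than in all day 0 libraries by over 1.5-fold in the mean, Irf7, Bst2 and Ifnar2 drop mainly at day 12, and Ifit2 is higher in all day 1 and day 12 libraries than in all day 0 libraries.

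All 6 nucleic acid sensors were called lower at day 12, and 4 of them at day 1 (median log2 fold changes -0.98 and -0.75). Zbp1, which binds left-handed nucleic acid and can start cell death, had 19.5, 21.7, 17.4, 22.9 and 23.4 CPM at day 0, 7, 8.22, 7.24, 7.8 and 6.8 at day 1, and 6.61, 6.79, 10.7, 11.7 and 9.5 at day 12. Both later groups lay below day 0 (-1.50, SE 0.118, and -1.22, SE 0.116), and the difference between them was within the fold limit (0.29, adjusted p = 0.043). Ifi203, of the family of cytosolic DNA sensors with a HIN domain, had 60.4, 65.5, 55.8, 66.6 and 59.3 CPM at day 0, 26.8, 27.8, 30.1, 28.4 and 29.8 at day 1, and 23.8, 24, 32.5, 34 and 32 at day 12 (-1.11 and -1.07, with no overlap with day 0).

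The RIG-I-like receptors detect viral RNA in the cytosol. Ddx58, which encodes RIG-I, measured 163 ± 7.42 CPM before cooling and 96.6 ± 2.01 and 96.6 ± 7.89 CPM after 1 and 12 days, a log2 fold change of -0.76 at both times. Ifih1, which encodes MDA5, showed -0.73 and -0.93. Dhx58, which encodes LGP2, a regulator of the other two, had 42.2, 40.7, 38.4, 43.8 and 43.4 CPM at day 0, 27.9, 25.3, 26.6, 28.4 and 30.9 at day 1, and 18.8, 15.9, 23.4, 22.9 and 23.2 at day 12. Its 3 groups did not overlap, and its fold change at day 1 was at the limit (1.495-fold, not called) and 2.00-fold at day 12. Ifi204 was -0.41 at day 1 and -0.95 at day 12, and 20% of its 50-base words occur in other genes, so reads may be shared with paralogs.

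The oligoadenylate synthetases are enzymes that make the messenger which activates RNase L to cut RNA, and the Oasl genes are related to them. The largest changes of the list at day 12 were in Oas2, Oasl1 and Oas3, followed by Irf7 (-2.16) and Oasl2 (-2.03). Oas2 (chr5:120730333-120749853) had 57.8, 59.3, 49.5, 60.1 and 54.2 CPM at day 0. It had 6.93, 5.55, 6.61, 6.38 and 5.38 CPM at day 1 and 1.61, 1.7, 2.58, 3.58 and 3.33 CPM at day 12. None of the groups overlapped. The level was 11% of the day 0 mean after 1 day and 4.56% after 12 days, with folds of 9.12 (log2 -3.19, SE 0.116, adjusted p = 2.76e-17) and 22.1 (log2 -4.47, SE 0.129, adjusted p = 1.38e-19).

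Oas3, its neighbour on chromosome 5, was low throughout, with 6.76, 4.73, 4.89, 7.17 and 7.08 CPM at day 0. It fell to 1.57, 1.55, 1.75, 1.32 and 1.68 CPM at day 1 and was 0.912, 0.933, 1.35, 1.67 and 1.25 CPM at day 12 (3.87-fold and 5.05-fold). The day 1 and day 12 values overlapped. Oas1a, the third of the synthetases, showed log2 fold changes of -1.18 and -1.35, but 57.6% of its 50-base words occur in other Oas1 genes, which makes its own share of the reads uncertain.

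The Oasl genes, adjacent to each other on chromosome 5, followed different courses. Oasl2 had 144, 145, 123, 154 and 138 CPM at day 0, 37.9, 36.9, 38.9, 36 and 35.6 at day 1, and 27.4, 23.1, 41.2, 41.3 and 39.7 at day 12, with log2 fold changes of -1.92 (SE 0.107) and -2.03 (SE 0.107) and no further change called (-0.10, adjusted p = 0.406). Oasl1 had 11.9, 13.1, 8.66, 10.9 and 10.5 CPM at day 0, overlapping with 7.31, 6.76, 7.04, 9.01 and 8.32 at day 1. At day 12 Oasl1 had 1.69, 1.03, 1.9, 2.42 and 1.57 CPM, below every other library. Its log2 fold change was -0.52 at day 1, under the limit, and -2.69 at day 12 (SE 0.141, adjusted p = 1.31e-14), and day 12 against day 1 gave -2.17 (adjusted p = 2.33e-12).

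The Ifit genes lie side by side on chromosome 19 and encode proteins that bind the 5′ end of foreign RNA. Ifit1 measured 159 ± 25.4, 103 ± 7.74 and 75.4 ± 16 CPM at days 0, 1 and 12, and was called lower at both times (-0.63 and -1.08). Without day 0 replicate 2 the day 1 value was -0.56 and was not called. Ifit3 was called at day 12 (-1.15), and 51.2% of its 50-base words occur in another gene. Its call against day 1 (-0.59) was lost without any one of day 1 replicates 1 and 5 and day 12 replicates 1 and 2 (-0.58, -0.56, -0.49 and -0.49). Ifit2 went the other way, with 26.7, 28.6, 23, 26 and 25.2 CPM at day 0, 29.3, 30.5, 30.3, 31.9 and 30.0 at day 1, and 32.9, 30.3, 32.8, 35.8 and 34.8 at day 12. Every later library was above every day 0 library, but the fold was 1.17 at day 1 and 1.29 at day 12 (adjusted p = 0.000195 and 3.61e-07), under the limit.

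Eif2ak2, which encodes the kinase PKR, and Adar, which edits adenosine in double-stranded RNA, moved little. Eif2ak2 was at -0.23 and -0.15 and Adar at -0.35 and -0.33, all within the fold limit. Of the exon bases of Adar, 16.8% overlap with another gene on the opposite strand. Such overlap, on either strand, also covers 16.8% of the exon bases of Ifi35, 13.9% of Rtp4, 13.7% of Herc6 and 11.3% of Gbp7. The 10 RNA-level genes together had 5 calls at day 1 and 7 at day 12, and their median log2 fold changes were -0.59 and -1.25.

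In the ISG15 and ubiquitin system, 5 of 7 genes were called lower at day 1 and all 7 at day 12 (medians -0.83 and -0.96). Herc6, the mouse ligase that attaches ISG15 to proteins, had 41.2, 40.1, 36.4, 45.1 and 41.3 CPM at day 0, 13.8, 13.5, 13.6, 12.7 and 12.8 at day 1, and 12.7, 11.9, 16.5, 15.8 and 16.3 at day 12. It fell 3.07-fold by day 1 (-1.62, SE 0.0722) and was 2.78-fold lower at day 12. Trim30a, a ubiquitin ligase family member, went from 65.3, 62, 51.9, 67 and 64.7 CPM to 33.1, 31.7, 33.5, 29.7 and 31.6 at day 1 and 19.2, 17.7, 23.6, 26.9 and 25.1 at day 12, with no overlap between groups (-0.96 and -1.47).

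Usp18, which removes ISG15 and restrains signalling at IFNAR2, had 53.9, 57.4, 42.5, 55.5 and 53.4 CPM at day 0, where replicate 3 stood apart. It had 30.3, 28.8, 28.5, 29.4 and 30.4 CPM at day 1 and 20.4, 16.7, 27.5, 28.7 and 28.8 at day 12. Both later groups were below every day 0 library (-0.83 and -1.11). Isg15 itself, the ubiquitin-like modifier, was 70.5 ± 8.87, 44.1 ± 1.44 and 40.7 ± 10.5 CPM in the 3 groups, and it was called at both times (-0.67 and -0.79). Without day 12 replicates 1 and 2 its day 12 value was -0.55 and was not called.

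Dtx3l, a ligase that partners PARP9, showed -0.87 and -0.96, although Parp9 itself was not called (-0.37 and -0.24). Trim25, the ligase that helps RIG-I signal, fell at day 12 (-0.81, SE 0.0315) with the smallest spread of the system at day 12 relative to its mean, 72.8 ± 3.42 CPM. Trim21, a cytosolic antibody receptor, was called at day 12 (-0.71) and lay at -0.57 at day 1.

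In the PARP family, whose members add ADP-ribose to proteins, only Parp14 was called. Its values were 69, 76.7, 60.8, 66.1 and 66.2 CPM at day 0, 36, 35.4, 36.7, 38.8 and 32.8 at day 1, and 32.9, 27.8, 39.7, 37.4 and 37.5 at day 12 (-0.92 and -0.95). Parp9 had 61.7, 64.8, 57.9, 67.4 and 60 CPM at day 0, 49.6, 45.9, 50.6, 49.2 and 46.6 at day 1, and 47.1, 45.2, 59.1, 57.5 and 55.5 at day 12, where it overlapped with day 0. Parp12 had 53.7, 51.9, 49.3, 57.4 and 57 CPM at day 0 and 50.04, 46.7, 56.9, 59.8 and 59.3 at day 12. These overlapped throughout, and its log2 fold change of 0.02 took the other sign without day 0 replicate 3 or day 12 replicate 4 or 5.

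Of the 10 interferon-inducible GTPases, which act on membranes of pathogen vacuoles or on viral capsids, 5 were called lower at day 1 and 8 at day 12 (medians -0.60 and -0.78). Gbp7 went from 67, 66.2, 60.1, 74.9 and 65 CPM at day 0 to 37.1, 34.1, 38.7, 37.8 and 35.4 at day 1 and 23.9, 21.7, 30.5, 30.4 and 29.7 at day 12, with no overlap (-0.86 and -1.29). Igtp, also called Irgm3, had 41.1, 48, 37.6, 45.1 and 42 CPM at day 0, 26.6, 27.6, 27.7, 27.7 and 29 at day 1, and 16.9, 16.6, 19.9, 19 and 19.2 at day 12. Its groups were separate too (-0.62 and -1.22). Its calls at day 1 and for day 12 against day 1 sat at the fold limit, with a day 1 value of -0.58 without day 0 replicate 2, and day 12 values against day 1 of -0.58 with replicate 5 of day 1 left out and -0.57 with either of replicates 1 and 2 of day 12 left out, none called.

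Iigp1, an effector of the immunity-related GTPases, had 218, 239, 175, 229.9 and 216 CPM at day 0 and 166, 168, 181, 173 and 174 at day 1, which overlapped. At day 12 it had 79.9, 77.7, 109, 104 and 106 CPM (-1.18, SE 0.0806), and it fell by 0.86 on the log2 scale between day 1 and day 12. The related Irgm1 was not called (-0.43 and -0.49) while Irgm2 was at both times (-0.68 and -0.81).

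Gbp2 had 112, 109.5, 94.8, 117 and 109 CPM at day 0, 84.2, 75.3, 83.3, 83.9 and 79.8 at day 1, and 99, 92.3, 109.6, 114 and 111 at day 12. It was below day 0 in every day 1 library and overlapped with day 0 at day 12, and the sign of its day 12 value (-0.04) changed with scaling to total counts or to reference genes. The rise from day 1 to day 12 was 0.37 (adjusted p = 1.2e-06), under the fold limit. Mx1 and Mx2, genes of the dynamin-like GTPases, had low counts, with 4.83 ± 1.51 and 10.4 ± 1.7 CPM at day 0. In the annotation used, Mx2 is a polymorphic pseudogene. Mx1 was called at both times but its groups overlapped (-0.61 and -0.75), and neither call held without day 0 replicate 2 (-0.44 and -0.58). The day 1 call of Mx1 was also lost without day 0 replicate 1 or day 1 replicates 2 or 3 (-0.56 each). Mx2 was called at day 12 (-1.12). Gbp6 was called at both times (-0.80 and -0.69), but 70.7% of its 50-base words occur in other genes and 29% of its exon bases overlap with another gene. Gbp3 was called at day 12 (-0.65), but not without day 12 replicate 2 (-0.57).

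Among the 9 other antiviral or inducible proteins, 4 were called lower at day 1 and 8 at day 12 (medians -0.58 and -1.26). Ifi44 had 116, 108, 90.8, 128 and 118 CPM at day 0, 71.2, 65.4, 69.2, 62.1 and 70.2 at day 1, and 24.6, 22.2, 42.9, 41.3 and 38.4 at day 12. It was lower than at day 0 at both times (-0.73, SE 0.122, at day 1 and -1.73, SE 0.127, at day 12). Its level was also lower at day 12 than at day 1, and none of the groups overlapped.

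Rsad2, which encodes viperin, a radical enzyme that makes a chain-terminating nucleotide, had 13.9, 22.1, 9.4, 12.2 and 12.1 CPM at day 0, 7.76, 8.66, 8.02, 11 and 10.1 at day 1, and 1.99, 3.19, 6.19, 8.22 and 4.96 at day 12. The day 1 values overlapped with day 0 and the day 12 values did not (-1.53, SE 0.242). Its day 1 call (-0.61, SE 0.229, adjusted p = 0.02) rested on day 0 replicate 2, without which the value was -0.39 (adjusted p = 0.112), and was also lost without day 1 replicate 1 or 3 (-0.56 and -0.57) and in DESeq2's test (adjusted p = 0.0979). Cmpk2, the mitochondrial nucleotide kinase next to Rsad2 on chromosome 12, had 10.1, 15.9, 6.99, 9.53 and 8.4 CPM at day 0, 4.07, 3.31, 3.83, 5.93 and 3.89 at day 1, and 2.63, 2.64, 4.45, 5.49 and 4.38 at day 12. In contrast to Rsad2, its day 1 libraries lay wholly below day 0 (-1.28, SE 0.198) and its day 12 value was -1.39.

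Bst2, which encodes tetherin, an anchor that holds budding virus at the cell surface, had 192, 182, 179, 196 and 197 CPM at day 0 and 179, 174, 171, 175 and 183 at day 1, which overlapped (-0.10, adjusted p = 0.233). At day 12 it had 60.6, 64.1, 87.1, 87.3 and 90.1 CPM, 2.43-fold lower than at day 0 and 2.27-fold lower than at day 1. Lgals3bp, a secreted glycoprotein that binds galectins, had 1481, 1398, 1437, 1513 and 1485 CPM at day 0, 1583, 1508, 1563, 1597 and 1649 at day 1, and 526, 590.4, 648, 676 and 620.2 at day 12. Only its day 12 libraries stood apart from the rest. Its log2 fold change was 0.11 at day 1 (adjusted p = 0.0304, under the fold limit) and -1.26 at day 12.

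Samd9l, which limits translation, was the sole member called only at day 1. It had 113, 119, 103, 117 and 106 CPM at day 0, 56.1, 59.6, 70.0, 65.6 and 63.2 at day 1, and 74.3, 66, 88.2, 89.5 and 83.2 at day 12. Its value was -0.82 at day 1 and -0.48 at day 12, and day 12 exceeded day 1 by 0.35 (adjusted p = 6.19e-05), under the fold limit. Ifi35, Xaf1 and Rtp4 were each called at day 12 (-0.84, -0.90 and -0.72) and lay at -0.53, -0.58 and -0.38 at day 1, and Rtp4 was not called without day 12 replicates 1 and 2 (-0.53).

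Levels were compared between genes per length, as CPM divided by the exon length in kilobases (FPKM). At day 0 Lgals3bp was highest (513.8 ± 15.8 FPKM), followed by Bst2 (209.6 ± 9.21) and Isg15 (93.3 ± 11.7). The next 4, Ifnar2 at 65 ± 1.36, Ifit1 at 59.8 ± 9.57, Irf7 at 54.2 ± 5.56 and Ifit3 at 50.6 ± 7.82 FPKM, lay within the spread of their neighbours. The lowest were Oas3 at 0.866 ± 0.172 and Mx1 at 1.27 ± 0.4 FPKM. At day 12, Lgals3bp, Bst2 and Isg15 still ranked 1 to 3, whereas Irf7 had moved from rank 6 to rank 20.

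Upstream of these genes, interferon ligands were at the limit of detection. Of 21 ligand genes, 4 were in the table. Ifnb1 had 17, 7, 2, 5 and 5 reads in the day 0 libraries, 3, 11, 4, 6 and 11 at day 1, and 0, 0, 0, 3 and 0 at day 12. Reads of Ifnb1 were thus found in 10 of 10 libraries of day 0 and day 1 and in 1 of 5 at day 12, and the gene did not pass the filter for testing. Only Ifnz was tested, at a mean of 0.115 CPM at day 0, and it was not called.

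Other receptors, kinases and regulators of the pathway were taken from a list compiled for comparison. Ifngr1, a chain of the interferon gamma receptor, was called at day 12 (-0.65), but not with scaling to total counts (-0.46). Its partner Ifngr2 was at -0.51 and -0.52, under the limit. The feedback inhibitors Cish (25.4 ± 1.68 CPM at day 0 and 13 ± 0.889 at day 12, log2 fold change -0.96) and Socs3 (89.9 ± 4.59 and 59.1 ± 2.19, -0.61) were also called lower at day 12, and the phosphatase gene Ptpn6 was called higher from a low level (0.74 ± 0.168 and 1.28 ± 0.242, 0.79). These 3 were named after their values were seen. Jak1 was at 0.09 and 0.03, Tyk2 at -0.51 and -0.08 and Socs1, a further feedback inhibitor, at -0.23 and -0.19, none called. With scaling to reference genes, Ifngr2 and Tyk2 were called lower at day 1.

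Of 13 tested adaptors and kinases of nucleic acid sensing, 2 were called lower (15.4%, against 13.4% of all genes) and 1 higher at day 1, and 3 lower (23.1%, against 16.2%) and 1 higher at day 12, shares near those of all genes. Mavs, the adaptor of the RIG-I-like receptors, was at -0.16 and -0.18 and the kinase Tbk1 at 0.27 at both times, none called. The gene called higher was Tlr7, an endosomal RNA sensor (1.47 and 1.77), named here after its values were seen. Tlr7 was at a mean of 0.105 CPM at day 0 and 0.36 CPM at day 12.

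A further list of 73 interferon-stimulated genes, compiled for comparison, had 57 tested genes. Of these, 28 were called lower at day 1 (49.1%, against 13.4% of all genes, median -0.55) and 0 higher (against 7.71%). At day 12, 38 were called lower (66.7%, against 16.2% of all genes, median -1.03) and 0 higher (against 13%). For day 12 against day 1, 19 were called lower (33.3%, against 8.53% of all genes) and 1 higher (against 10.6% of all genes). The latter was Gch1 (0.61), the first enzyme of tetrahydrobiopterin synthesis. Leaving out replicate 4 of day 1, or either of replicates 4 and 5 of day 12, ended that call (0.58, 0.57 and 0.58). The 5 largest falls at day 12 were in Gbp8 (-3.45), Gbp4 (-3.35), Gbp10 (-3.29), Ifi205 (-2.69) and Sp110 (-2.43). Those of Gbp8, Gbp4 and Gbp10 rest on few reads, with 2 to 23, 40 to 95 and 28 to 53 in the day 12 libraries. Ifi205, a relative of Ifi203 and Ifi204, measured 66.9 ± 5.05, 45.8 ± 1.84 and 10.4 ± 1.08 CPM at days 0, 1 and 12. It was not called at day 1 (-0.54), but was with scaling to reference genes. Of the exon bases of Gbp10, 46.3% overlap with another gene.

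The library numbers in the labels fall into 2 series, 11 libraries in one and 4 in the other, with both series present in every group. With the 11 libraries of the larger series alone, 33 members were called lower at day 1, 42 at day 12 and 12 for day 12 against day 1, and with the series as a covariate the counts were 30, 42 and 10. Scaling to total counts moved the median of all genes to 0.21 at day 12 and called 36 members lower there. Scaling to Hprt, Tbp and Ppia moved it to -0.11 at day 1 and called 34 members lower.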

How the data were processed

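RNA-seq was performed on 15 libraries of cultured adipocytes. The authors aligned reads to mm10 with TopHat2 2.0.13 and Bowtie2 2.2.1 (versions from the submitters' processing notes) and deposited HTSeq read counts per gene, the values used here. Their strand setting is not given in the sources used here, so overlapping genes on opposite strands may share reads. The deposited rlog values, and tables of fold changes and p-values from the authors' DESeq2 comparisons, were not used. edgeR 4.0.16 (R 4.3.3) was run on the counts with TMM scaling, filterByExpr at a minimum count of 10, one fit of all 15 libraries, quasi-likelihood tests and Benjamini-Hochberg adjustment over 14293 genes. Calls needed both an adjusted p below 0.05 and more than a 1.5-fold difference. Alternatives included other scalings, DESeq2 1.42.0, glmTreat, the number series, a replicate block and each library left out, and 2 that leave out libraries standing apart were added after seeing the data. Positions, exon overlap and lengths for FPKM came from GENCODE M21 (GRCm38, the mm10 assembly), and promoters from RefSeq. The code was tested on simulated data.

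The members and lists were chosen with earlier results of these data known. Values per library are given for up to 3 members per role with the largest day 12 change, the receptors, Stat2, Irf7 and Irf9, and a few others chosen after their values were seen (Oasl2, Ifit2, Gbp2, Bst2, Lgals3bp and Samd9l). Of the other interferon-stimulated genes, the 5 largest falls at day 12 with a mean of at least 1 CPM in a group are named. One gene of the upstream list, and the counts over that list, are not reported here.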

Additional observations from a re-analysis of the deposited data

Results flagged for a closer look

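Each member was searched in each group for a library set apart from the other 4 by Dixon's gap ratio, over 156 groups of 5 libraries, where chance alone marks about 1 in 20. Only 2 were found. Usp18 was low in day 0 replicate 3, at 42.5 CPM, and Ifnar1 was high in day 0 replicate 2, at 109 CPM.

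For 11 members the effect of 12 days differed from that of 1 day, as tested by the contrast of day 12 against day 1 in edgeR. On the log2 scale that difference was -2.17 for Oasl1, -1.90 for Irf7, -1.37 for Lgals3bp, -1.28 for Oas2, -1.18 for Bst2, -1 for Ifi44, -0.91 for Rsad2, -0.86 for Iigp1, -0.84 for Ifnar2, -0.60 for Igtp and -0.59 for Ifit3. The last 2 and Rsad2 were not called without day 12 replicates 1 and 2.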

How the results depend on the processing

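Of 4543 values recomputed under an alternative, 4346 were rated the same. For single genes this meant the same direction and call, as held for 3811 of 3974 values. Counts were rated the same within 1.5-fold, and medians within the SD between libraries. With the call rule kept, 23 of the 27 calls of members at day 1, 35 of 42 at day 12 and 8 of 11 for day 12 against day 1 held under every alternative. Leaving out each library in turn gave 25 to 33, 41 to 42 and 9 to 12 members lower, a day 1 median of -0.69 to -0.567 (lowest without day 0 replicate 3), and 0 to 1 other interferon-stimulated genes higher for day 12 against day 1. With total counts, 2982 genes were higher and 1668 lower at day 12 (1852 and 2320 with TMM), Ddx58, Gbp3, Gbp6, Mx1, Rtp4 and Trim21 lost their day 12 calls, 3 other interferon-stimulated genes were higher for day 12 against day 1, and the day 12 sign turned for Gbp2 (0.153), Eif2ak2 (0.0398), Tyk2 (0.109) and Mavs (0.0125). With reference genes, that count was also 3, the day 1 median was -0.707, Jak1 was -0.00778 at day 1 and Gbp2 0.0149 at day 12. Without the fold limit, in the order day 1, day 12 and day 12 against day 1, members lower were 49, 48 and 26 and higher 2, 1 and 7. All genes lower were then 5177, 5342 and 4690 and higher 5049, 5608 and 4908, and other interferon-stimulated genes lower were 45 at day 1 and 35 for day 12 against day 1, and higher 3, 5 and 7. glmTreat, which tests against the 1.5-fold limit itself, gave 20, 38 and 8 members lower. For all genes it gave 1206 lower and 628 higher at day 1, and 759 lower and 906 higher for day 12 against day 1. Of the other interferon-stimulated genes it called 17 lower at day 1 and 0 higher for day 12 against day 1, where the larger number series also gave 0. Without the day 12 libraries standing apart, 2 were higher there and Gbp2 was 0.047 at day 12. Without these and day 0 replicate 3, the count was 2, the day 1 median -0.689 and Gbp2 0.00225. With single libraries left out, Gbp2 ran from -0.0841 to 0.00421 and Parp12 from -0.0152 to 0.0697 at day 12. The cause of these shifts was not tested. Same-numbered libraries did not deviate together (correlations of -0.0255 to 0.0436, 0 of 15 over 0.1), and a replicate block gave 28, 42 and 11 members lower. Of the 4 interferon ligand genes in the table, 3 had too few reads to be tested at this depth.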
